A study of Sus scrofa with 12 samples.

Results

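The genes described here were 10 junction and surface genes of endothelium: PECAM1, CDH5, ESAM, EMCN, CD34, TEK, TIE1, ROBO4, NOS3 and MMRN2. They were taken by gene symbol from the 19681 Ensembl pig genes listed for each library, and each of the 10 symbols matched 1 identifier. RNA sequencing covered 12 libraries in 4 groups of 3 biological replicates, named A, B and C. AOC is a porcine endothelial cell line, a single line in culture whose stage is labelled final. IEC2, IEC4 and IEC12 are porcine induced pluripotent stem cells taken on days 2, 4 and 12 of an endothelial induction, and the labels call all of them induced endothelial cells. According to the study's methods the first step of induction used the GSK3 inhibitor CHIR99021, the next used BMP4, FGF2 and VEGF, and the last used endothelial growth medium with added VEGF. Cells were sorted for the CD31 protein on day 12, and the sorted cells had libraries of their own, so the IEC12 libraries hold the unsorted culture. Libraries of undifferentiated stem cells and of sorted cells were not analysed here. Levels are FPKM, counts of fragments divided by transcript length and by the mapped fragments of the library, so that genes of different length can be compared. A library held between 8357 and 10467 genes at or above an FPKM of 1, and the sequencing depth is unknown because the files give no counts.

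Endothelial cells line blood vessels and are held together by adherens junctions, in which VE-cadherin (CDH5) binds the same protein on the neighbouring cell, and by adhesion molecules of the immunoglobulin family such as PECAM1 (CD31) and ESAM. Their luminal surface carries sialomucins, heavily glycosylated proteins such as CD34 and endomucin (EMCN), and receptors that control vessel stability, among them the angiopoietin receptor TEK (TIE2), its partner TIE1 and the guidance receptor ROBO4. NOS3 makes nitric oxide, which relaxes the vessel wall, and MMRN2 is an extracellular matrix protein deposited by endothelium.

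All 10 genes were detected in every AOC library, and 9 of them had an FPKM of at least 1 in each. None of the 10 reached an FPKM of 1 in any of the 9 IEC libraries. Summed over the 10 genes, the level was 388 in AOC replicate A, 429 in B and 297 in C. The sum lay between 0.869 and 1.82 in IEC2, between 1.55 and 2.10 in IEC4 and between 0.542 and 0.649 in IEC12. The 3 stages together never came near the AOC sum, and the sums of IEC12 were below those of the other stages. In bulk RNA, fewer cells of a type and less RNA per cell cannot be told apart.

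**Figure D1:**
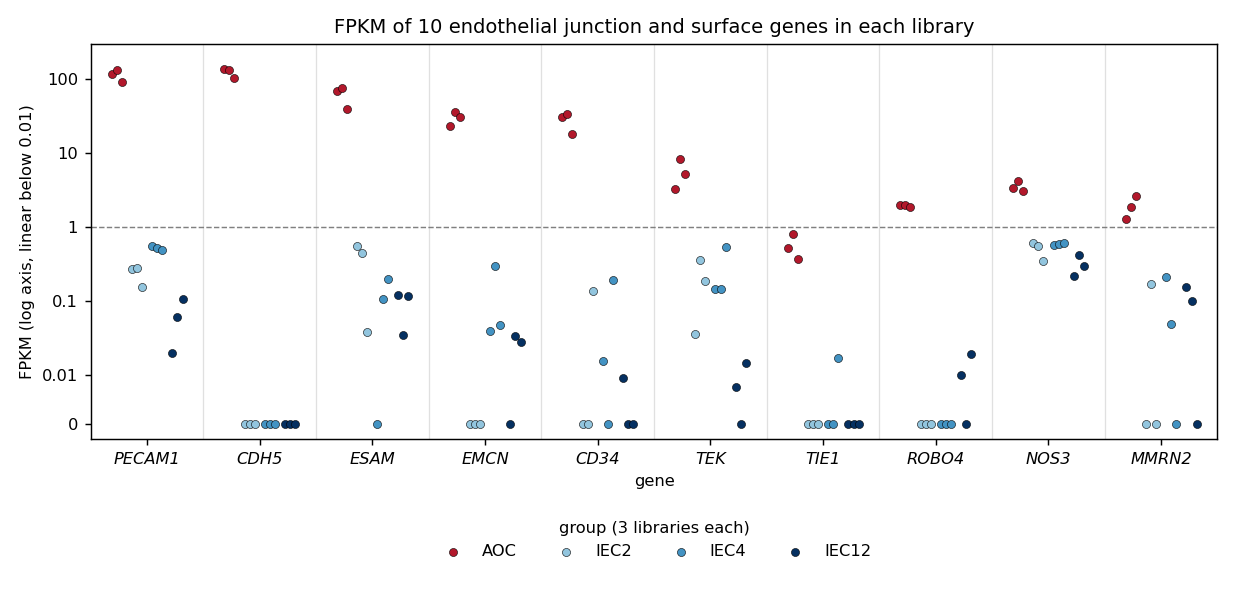
FPKM of the 10 genes (horizontal axis) in each of the 12 libraries, on a vertical axis that is logarithmic above 0.01 and linear below it; each point is 1 library, coloured by group, and the dashed line marks an FPKM of 1. Every AOC point of a gene lies above all of its IEC points, and no IEC point reaches the dashed line.

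For each of the 10 genes, the lowest AOC library was above the highest IEC library. Of all 19681 genes, 2122 (10.8%) showed this order. A narrower pattern, an FPKM of at least 1 in every AOC library and under 1 in every IEC library, was found for 259 genes, 9 of the 10 among them. TIE1 was the exception because it stayed under 1 in AOC as well. With an AOC mean of at least 10, 51 genes had the narrower pattern, and they included PECAM1, CDH5, ESAM, EMCN and CD34.

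The labels call the IEC libraries induced endothelial cells, and these levels go against that name as a description of the bulk RNA. The study itself found a minority of CD31-positive cells by flow cytometry on day 12. Its sorted cells stained for VE-cadherin, eNOS (the NOS3 protein) and vWF. Those are protein measurements on cells, and their difference from the RNA levels was not tested here. Of 16 other endothelial markers looked for, 10 were found in the files. All 10 were under an FPKM of 1 in every IEC12 library. Their sum there ranged from 0.10 to 0.298, against 373 to 419 in AOC. However, 4 of them, SOX18, PLVAP, STAB1 and LYVE1, were under 1 in every AOC library as well. SOX18 averaged 0.0712 ± 0.0662 in IEC12 and 0.0237 ± 0.000382 in AOC (SD, n = 3). The AOC sum came mainly from ECSCR, CLEC14A and FLI1, with means of 188, 127 and 54.0. CLEC14A was listed at 0 in all IEC12 libraries, as was LYVE1, which was at no more than 0.0583 in AOC. The receptor KDR was the 1 marker of the list that reached 1 in every IEC2 library, with 2.95 ± 0.898 there and 1.36 ± 0.0848 in AOC (SD, n = 3). The groups are therefore called by their stage names below.

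Among the junction adhesion genes, PECAM1 (ENSSSCG00000017277) encodes CD31, the protein later used to sort the cells. It lies on chromosome 12, from 14667643 to 14723296 in RefSeq's annotation of Sscrofa11.1, the assembly that is also called susScr11. PECAM1 measured 119, 131 and 91.7 in AOC replicates A, B and C, a mean of 114 ± 20.3 (SD, n = 3). It measured 0.268, 0.284 and 0.157 in IEC2. It measured 0.554, 0.519 and 0.489 in IEC4, and 0.0197, 0.0609 and 0.105 in IEC12. The 4 groups did not overlap: AOC was highest, followed by IEC4, IEC2 and IEC12. The lowest AOC library was 166 times the highest IEC library. The IEC12 mean was 0.0544% ± 0.0376 of the AOC mean (SD over the IEC12 libraries, n = 3).

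CDH5 (ENSSSCG00000035772; chromosome 6, 27108560 to 27142145) encodes VE-cadherin. It measured 137, 134 and 103 in AOC, the highest mean of the 10 genes, 125 ± 18.7. CDH5 was listed at 0 in all 9 IEC libraries. Values at 0 in such files need not mean that no transcript was present. TPI1, a glycolytic enzyme that cells use in general, was listed at 0 in 1 library and at no more than 0.212 in any, while GAPDH was at 534 or more in all 12. The same CDH5 gene model gave over 100 in each AOC library. Only 29 genes of the 19681 were at 1 or more in every AOC library and listed at 0 in every IEC library, and CDH5 was 1 of them.

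ESAM (ENSSSCG00000015200; chromosome 9, 51983019 to 51992415) is an adhesion molecule of endothelial tight junctions. It measured 68.5, 75.7 and 39.5 in AOC. It measured 0.558, 0.451 and 0.0382 in IEC2. It measured 0, 0.105 and 0.201 in IEC4 and 0.122, 0.0353 and 0.117 in IEC12. The 3 stages overlapped, and IEC2 replicate C was 0.0382 where the other IEC2 libraries were above 0.4. ESAM and ROBO4 lie close together on chromosome 9, with MSANTD2 and ROBO3 between them. MSANTD2 did not share their pattern, at 1.59 ± 0.107 in AOC and 1.35 ± 0.479 in IEC12 (SD, n = 3). VSIG2, on the other side and 135 bases from ESAM, was at 3.67 ± 0.0978 in AOC and listed at 0 in all IEC libraries.

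The sialomucins EMCN and CD34 followed in level. EMCN (ENSSSCG00000038080; chromosome 8, 120174091 to 120227971) measured 23.0, 36.3 and 31.2 in AOC. It was listed at 0 in all 3 IEC2 libraries and measured 0.0394, 0.301 and 0.0477 in IEC4. In IEC12 it measured 0, 0.0335 and 0.0279. IEC4 thus lay above IEC2 and above IEC12 without overlap, at levels no more than 0.996% of the AOC mean, and IEC4 replicate B set that highest value.

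CD34 (ENSSSCG00000039946; chromosome 9, 134912793 to 134937763) is also carried by blood progenitors. It measured 30.9, 34.1 and 18.2 in AOC. It was above 0 in 4 of the 9 IEC libraries, at 0.136 in IEC2 replicate C, 0.0154 and 0.193 in IEC4 replicates A and C, and 0.00948 in IEC12 replicate A. The stages overlapped at 0. Of 9 blood cell markers, 8 were found. Their sum was 6.24 to 7.91 in AOC and 4.56 to 9.22 in IEC12, with 13.3 to 15.7 in IEC2 and 10.3 to 13.2 in IEC4. The pan-leukocyte gene PTPRC was listed at 0 in every AOC library, as was HBZ, and CD53 was at 0 in all of IEC2 and IEC4. Other members of the list were present: PTPRC measured 2.14 to 3.49 in IEC4 and 1.16 to 1.64 in IEC12. LCP1 measured 2.80 to 5.87 in IEC4, and SPI1 measured 4.43 to 5.88 in AOC and 5.35 to 9.16 in IEC2. The part of the blood cell markers in the CD34 values was not tested.

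The Tie receptors were lower than the junction genes. TEK (ENSSSCG00000005122; chromosome 1, 195938177 to 196052294), the receptor for angiopoietins, measured 3.26, 8.34 and 5.26 in AOC, a mean of 5.62 ± 2.56 (SD, n = 3). It measured 0.0358, 0.358 and 0.189 in IEC2 and 0.148, 0.148 and 0.536 in IEC4. In IEC12 it measured 0.00755, 0 and 0.0145. All IEC12 libraries were below all libraries of IEC2 and IEC4, which overlapped each other. TEK shares 384 bases of its annotated span with LOC102166359, so reads in that stretch cannot be assigned with certainty.

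TIE1 (ENSSSCG00000003950; chromosome 6, 167919662 to 167947253), the partner receptor of TEK, was the lowest of the 10 in AOC. It measured 0.526, 0.809 and 0.368 there and was listed at 0 in 8 of the 9 IEC libraries. The other value was 0.0172 in IEC4 replicate C. In AOC, about 9004 to 10053 genes ranked above TIE1 in each library, whereas 510 to 706 ranked above CDH5.

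ROBO4 (ENSSSCG00000015203; chromosome 9, 52083757 to 52097784), an endothelial receptor of the roundabout family, had the smallest spread in AOC. It measured 2.02, 1.99 and 1.85 there, a coefficient of variation of 4.64%. It was listed at 0 in all IEC2 and IEC4 libraries and in IEC12 replicate B. The remaining IEC12 values were 0.00995 and 0.0191.

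NOS3 (ENSSSCG00000016450; chromosome 18, 6209218 to 6228912), the endothelial nitric oxide synthase, was the 1 gene besides PECAM1 that was above 0 in all 12 libraries. It measured 3.41, 4.22 and 3.11 in AOC. It measured 0.612, 0.561 and 0.349 in IEC2. It measured 0.575, 0.585 and 0.613 in IEC4 and 0.219, 0.420 and 0.294 in IEC12. IEC12 lay below IEC4 without overlap, while IEC2 overlapped both. The IEC12 mean was 8.68% ± 2.84 of the AOC mean (SD, n = 3), and the highest IEC library reached 17.1%, more than for any other of the 10 genes. ATG9B ends 230 bases from NOS3 in the annotation and is not analysed here.

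MMRN2 (ENSSSCG00000024048; chromosome 14, 87891585 to 87916327) measured 1.28, 1.88 and 2.66 in AOC. It was above 0 in 1 of 3 IEC2 libraries, at 0.170, and in 2 of 3 IEC4 libraries, at 0.215 and 0.0495. In IEC12 it measured 0.155, 0.0994 and 0. The stages overlapped. The MMRN2 span overlaps that of BMPR1A by 206 bases, and BMPR1A was at 0.328 ± 0.0830 in AOC and 21.3 ± 6.13 in IEC12 (SD, n = 3), so the low IEC values of MMRN2 are uncertain.

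Within AOC, the order of the means was CDH5, PECAM1, ESAM, EMCN, CD34, TEK, NOS3, ROBO4, MMRN2 and TIE1. The ranges of neighbours in this order overlapped, except those of PECAM1 against ESAM, ESAM against EMCN, CD34 against TEK, NOS3 against ROBO4 and MMRN2 against TIE1. AOC replicate C was the lowest of the 3 libraries for 7 of the 10 genes. Among the 7983 genes that reached an FPKM of 1 in all AOC libraries, replicate C was below both others for 43.9%, and the median ratio of C to the mean of A and B was 0.965. For ESAM this ratio was 0.547 and for CD34 it was 0.559. MMRN2 went the other way, with its highest value in replicate C and a ratio of 1.68.

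AOC was then compared with each stage in limma, on log2(FPKM + 1), in 1 fit of all 12 libraries. The difference understates the change of low genes on this scale. The 3 comparisons share the AOC libraries, so they are not independent. Genes were tested only if 3 or more libraries reached an FPKM of 1. Of the 10 genes, 9 entered through AOC alone, so that entry itself required a difference, and TIE1 did not enter. Against IEC2, 9 of 9 tested genes were higher in AOC at an adjusted p under 0.05, where 26.7% of all 11053 genes tested were. Against IEC4 the count was again 9, with 22.1% of all genes, and against IEC12 it was 9, with 22.4% of all genes. Without the filter, all 10 genes were tested and all 10 were called higher in each comparison, beside 18.0% of 18889 genes against IEC2, 15.2% against IEC4 and 15.2% against IEC12.

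Against IEC12, the difference in log2(FPKM + 1) was 6.74 for PECAM1 (SE 0.154, limma adjusted p = 2.77e-11). It was 5.78 for ESAM (SE 0.238, limma adjusted p = 2.48e-09), 4.91 for EMCN (SE 0.171) and 4.79 for CD34 (SE 0.205). The receptors and the enzyme differed less on this scale: 2.64 for TEK (SE 0.244), 1.80 for NOS3 (SE 0.139), 1.55 for ROBO4 (SE 0.0996) and 1.42 for MMRN2 (SE 0.171, limma adjusted p = 2.09e-05). CDH5 was listed at 0 in all IEC12 libraries and had a limma adjusted p of 1.33e-11. TIE1, likewise at 0 there, had a limma adjusted p of 9.64e-05 in the fit without the filter. No size of the difference is given for those, since their IEC12 side would be the constant added alone. The sizes of the other genes depend on that constant too. EMCN, CD34, TEK, ROBO4 and MMRN2 each had at least 1 IEC12 library at 0.

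Against IEC2, PECAM1 differed by 6.53 (SE 0.154), ESAM by 5.50 (SE 0.238), TEK by 2.41 (SE 0.244) and NOS3 by 1.60 (SE 0.139). Against IEC4, the corresponding differences in log2(FPKM + 1) were 6.22, 5.77, 2.31 and 1.52. All 4 genes kept the same order of size in each of the comparisons.

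**Figure D2:**
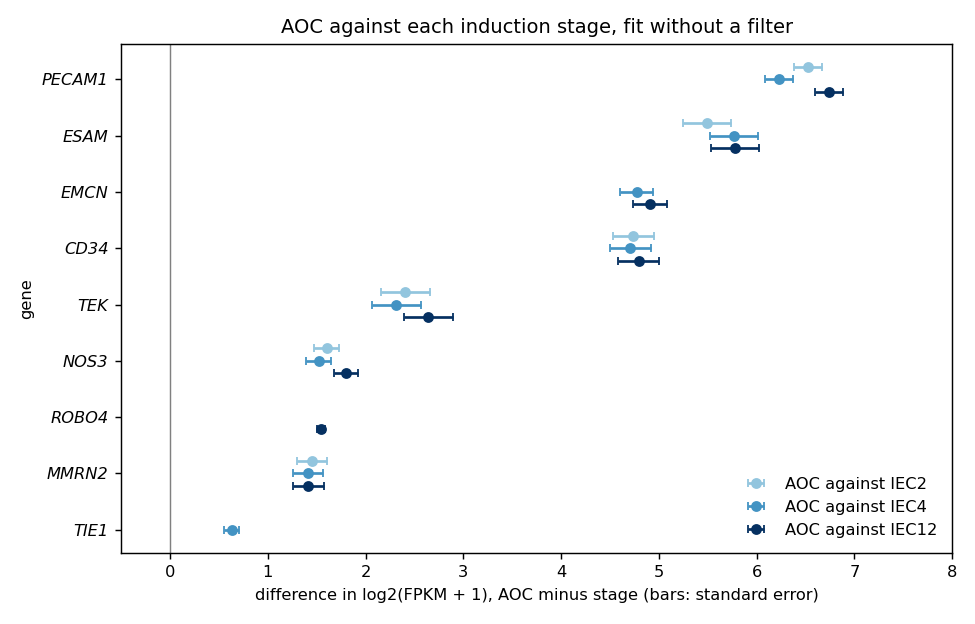
Difference in log2(FPKM + 1) between AOC and each induction stage (horizontal axis) for 9 of the 10 genes (vertical axis), from the limma fit without a filter; points are estimates, bars are standard errors and colours mark the stage. A gene listed at 0 in all libraries of a stage has no point for it, and CDH5 is not drawn for that reason; PECAM1 has the largest differences, from 6.22 to 6.74, and TIE1 the smallest.

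A stricter rule, a p and an adjusted p under 0.001 with a log2 difference beyond 3, was met by 5 of the 10 genes in each AOC comparison: PECAM1, CDH5, ESAM, EMCN and CD34. With 0.1 added in place of 1, a setting chosen after seeing the data, it was met by 8 genes against IEC2, 8 against IEC4 and 9 against IEC12. The shares of all genes tested that met it at that setting as higher in AOC were 6.28%, 4.17% and 4.78%. With 1 added, 2.97% of all genes tested met it as higher in AOC against IEC2, 2.11% against IEC4 and 2.13% against IEC12.

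During induction itself, none of the 10 genes passed the filter, which in the fit of the 9 IEC libraries meant that none was tested. Without a filter, 9 could be tested, CDH5 being 0 throughout. PECAM1 was the only 1 of the 9 that limma called between stages. It rose from IEC2 to IEC4 by 0.30 in log2(FPKM + 1) (SE 0.0584, limma adjusted p = 0.00888), where 15.4% of 18415 genes were called higher. It fell by 0.52 from IEC4 to IEC12 (SE 0.0584, limma adjusted p = 0.000926), where 16.1% of genes were called lower. From IEC2 to IEC12 it fell by 0.22 (SE 0.0584, limma adjusted p = 0.0294), where 10.3% of genes were called lower. With 0.1 added in place of 1, an alternative chosen after seeing the data, the first step had a limma adjusted p of 0.0916 and the others 0.00404 and 0.0486. The IEC2 to IEC12 step also missed 0.05 without IEC2 replicate A, without IEC2 replicate B, without IEC12 replicate A or without IEC12 replicate B, with limma adjusted p values of 0.0805, 0.0975, 0.0935 and 0.0969. With the replicate letter as a block it was not called either (limma adjusted p = 0.0648).

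By overlap of libraries alone, PECAM1 and EMCN were higher in every IEC4 library than in every IEC2 library, a pattern that 26.6% of the 18415 genes showed. PECAM1, EMCN, TEK and NOS3 were lower in every IEC12 library than in every IEC4 library, against 26.0% of genes. PECAM1 and TEK were lower in every IEC12 library than in every IEC2 library, against 16.9% of genes. No gene of the 10 was higher without overlap at the later stage in either comparison with IEC12, where 15.5% of genes were higher without overlap against IEC4 and 22.7% against IEC2. All of these counts are out of the 9 genes that were above 0 in an IEC library.

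**Figure D3:**
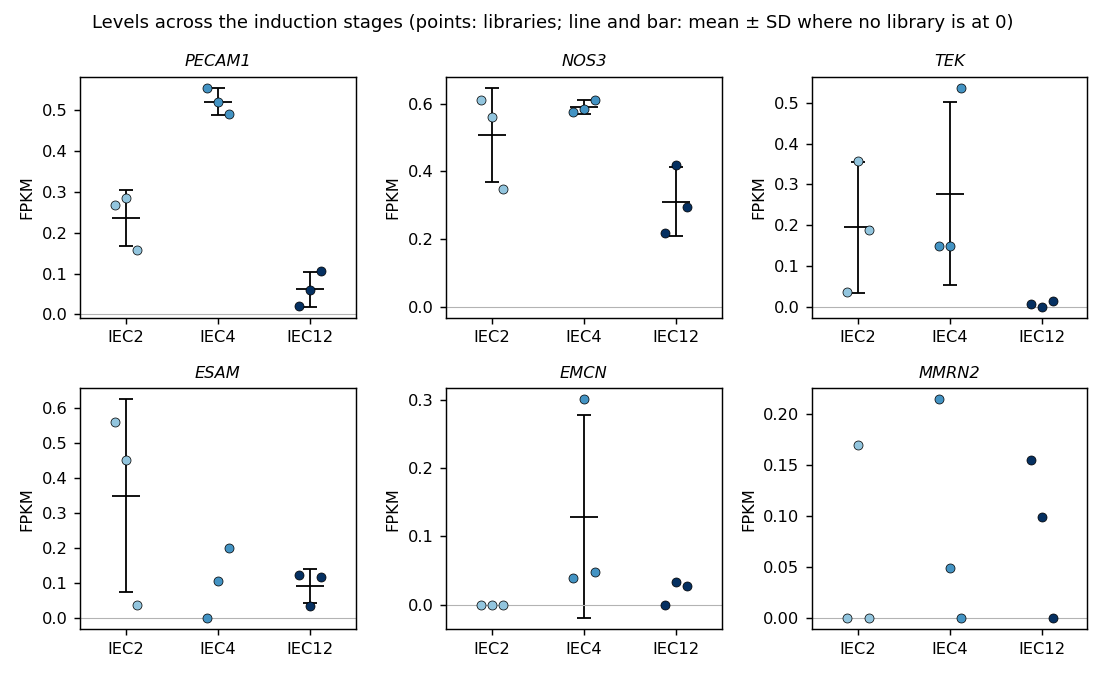
FPKM of 6 of the 10 genes (vertical axes, a separate scale in each panel) at 3 induction stages (horizontal axes); points are libraries, and the line and bar are the mean and SD, drawn only where no library is at 0. PECAM1 stands highest in IEC4 and lowest in IEC12 without overlap, and no panel extends to an FPKM of 1.

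Genes that were not called may still differ between stages within the intervals of their differences. NOS3 differed between IEC12 and IEC4 by -0.28 in log2(FPKM + 1), with a 95% interval from -0.50 to -0.06 and a limma adjusted p of 0.0629. TEK differed by -0.33, with an interval from -0.63 to -0.02 and a limma adjusted p of 0.105. ESAM differed by -0.27 between IEC4 and IEC2, with an interval from -0.61 to 0.06. For ROBO4 and TIE1 every stage difference lay within 0.05 of 0, with both genes at or near 0.

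Genes that act with these 10 were described from 8 lists holding 69 genes, of which 60 were found. Between IEC4 and IEC2, 36 of them were tested: 10 were higher in IEC4 and 6 lower, and the median difference in log2(FPKM + 1) was 0.19, against 0.20 for all genes. Of all 10542 genes tested, 24.8% were higher and 12.5% lower. Between IEC12 and IEC4, 6 were higher in IEC12 and 10 lower, with a median of -0.16 against -0.15 for all genes, of which 17.3% were higher and 26.9% lower. Between IEC12 and IEC2, 6 were higher and 8 lower, where 24.2% of all genes were higher and 19.3% lower. In AOC, 14 of 41 tested were higher and 15 lower against IEC2, 15 higher and 15 lower against IEC4, and 19 higher and 11 lower against IEC12. In those comparisons 26.7%, 22.1% and 22.4% of all genes were higher in AOC and 37.1%, 47.0% and 36.2% were lower. The median difference of the partner genes was 0.31 against IEC2, -0.07 against IEC4 and 0.17 against IEC12, beside -0.20, -0.45 and -0.21 for all genes. Of the 41, ANGPT2, NOSTRIN, CAVIN1, CLEC14A and CD93 were not among the 36 tested between stages. Their AOC levels carried them past the filter, which favoured a call as higher in AOC. The partner genes thus moved in both directions.

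The adherens junction list holds the cadherins, catenins and associated proteins that VE-cadherin works with, and 9 of 10 were found. CTNNB1, the beta-catenin that binds the VE-cadherin tail, measured 104 ± 22.4 in AOC and 131 ± 25.6 in IEC12 (SD, n = 3), a difference in log2(FPKM + 1) of -0.34 (limma adjusted p = 0.123). CTNND1, the p120 catenin that holds cadherins at the membrane, measured 5.71 ± 1.19 in AOC and 6.62 ± 0.958 in IEC12. Neither catenin differed between those groups beyond the spread of the libraries. CDH2, neural cadherin, had the opposite pattern to CDH5: it measured 0.0165, 0 and 0 in AOC, and between 9.51 and 24.8 in the IEC libraries, and was lower in AOC than in IEC12 by 4.23 (SE 0.178, limma adjusted p = 3.12e-09). The 2 named cadherin genes next to CDH5 in the annotation, CDH8 and CDH11, were also IEC genes, at 9.28 ± 2.79 and 13.5 ± 2.23 in IEC12 and at 0 and 0.0436 ± 0.0404 in AOC. PTPRB, the phosphatase VE-PTP, was higher in AOC, at 3.98 ± 0.365 against 1.42 ± 0.138 in IEC12 (limma adjusted p = 8.34e-05).

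In this list, 4 of 8 tested genes were higher in AOC than in IEC12 (PTPRB, VCL, JUP and NECTIN3) and 1 was lower (CDH2). The calls of JUP and of NECTIN3, a nectin, were each lost when any 1 of 4 libraries was left out, with limma adjusted p values from 0.0699 to 0.115 and from 0.0546 to 0.0972. From IEC2 to IEC4, 2 rose (JUP and CTNND1) and 1 fell (CDH2), and from IEC4 to IEC12, 1 rose (CDH2) and 4 fell (JUP, VCL, CTNND1 and CTNNA1). The fall of CDH2 was lost without IEC2 replicate C or IEC4 replicate B, and its rise was lost without IEC4 replicate B or IEC12 replicate C and with libraries scaled to equal totals (limma adjusted p = 0.123). The falls of CTNND1 and of CTNNA1, alpha-catenin, were both lost without IEC4 replicate A or C or IEC12 replicate A or B, which left 2 of the 4, and that of CTNNA1 was also lost without IEC4 replicate B. JUP, plakoglobin, made the largest of these moves. It was at 6.19 ± 2.68 in IEC2, 18.0 ± 3.70 in IEC4 and 0.568 ± 0.505 in IEC12, and fell by 3.63 in log2(FPKM + 1) at the last step (SE 0.314, limma adjusted p = 4.5e-05). VCL, which links the junction to actin, fell at the same step by 1.28 on that scale (SE 0.288, limma adjusted p = 0.00631).

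Of the other junction adhesion molecules, 7 of 10 were found and 5 tested. F11R, the junctional adhesion molecule A, measured 64.2, 41.9 and 96.3 in IEC4, far above the 1.43 to 5.93 of the other stages, and 38.5, 42.7 and 25.3 in AOC. It rose by 3.80 from IEC2 to IEC4 (SE 0.405, limma adjusted p = 0.000112) and fell by 4.08 from IEC4 to IEC12. JAM2 and TJP1, another junctional adhesion molecule and the scaffold protein ZO-1, rose and fell at the same steps. From IEC2 to IEC4, 3 rose and none fell. From IEC4 to IEC12, none rose and 3 fell. In AOC against IEC12, F11R was higher and JAM2 and TJP1 were lower.

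The sum of the epithelial markers, like the means of F11R, JAM2 and TJP1, was highest in IEC4. Of 7 listed, 6 were found, and their sum was 519 to 1434 in IEC4, against 108 to 144 in IEC2, 41.8 to 86.6 in IEC12 and 2.25 to 4.08 in AOC. KRT8 was at 494 ± 230 in IEC4 against 9.87 ± 5.73 in IEC12 (SD, n = 3), EPCAM was listed at 0 in all IEC2 libraries, and CDH1 and KRT18 were listed at 0 in all AOC libraries. CLDN6 carried most of the sum in the other groups, with means of 105 in IEC2, 58.4 in IEC12 and 2.95 in AOC, and 343 in IEC4. CLDN7 did not follow the sum: its mean was lowest in IEC4, at 0.0154, and it stayed under 0.1 in all libraries. The part of the epithelial markers in the levels of JUP and F11R was not tested. Mural markers, all 7 found, summed to 9.38 to 28.5 in IEC4, 0.190 to 0.545 in IEC2, 0.928 to 2.01 in IEC12 and 4.73 to 12.9 in AOC. The IEC4 sum was carried by RGS5, at 3.93 to 24.6, and ACTA2, at 1.31 to 4.77, and the other 5 stayed under 1 there. ACTA2 carried the AOC sum, at 4.65 to 12.8. CNN1 was listed at 0 in all AOC libraries and RGS5 in all IEC2 libraries. Mesenchymal markers, 6 of 7 found, summed to 85.0 to 115 in IEC2, 47.0 to 58.2 in IEC4, 62.4 to 80.7 in IEC12 and 18.3 to 23.6 in AOC, with LUM listed at 0 in all IEC2 libraries. Pluripotency markers, 3 of 7 found, had their highest sums in IEC4, at 7.52 to 8.80. The sums were 2.56 to 4.82 in IEC12, 0.285 to 0.664 in IEC2 and 0.0380 to 0.0843 in AOC. LIN28A and DNMT3B carried the IEC4 sum, at means of 4.27 and 3.75, and LIN28A was listed at 0 in all AOC and IEC2 libraries. NANOG was at 0.350 ± 0.158 in IEC4 and 0.732 ± 0.431 in IEC12 (SD, n = 3), with overlap. POU5F1 and SOX2 were among the markers not found.

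The ligands of TEK divided between the groups. ANGPT2, the ligand that endothelium itself releases, measured 27.4, 43.7 and 26.2 in AOC and no more than 1.72 in any IEC library. It was higher in AOC than in IEC12 by 4.58 in log2(FPKM + 1) (SE 0.288, limma adjusted p = 9.04e-08). ANGPT1, the activating ligand supplied mainly by perivascular cells, was at 0.00744, 0.0291 and 0.0722 in AOC and at 8.85, 5.87 and 5.79 in IEC4. It rose by 1.68 from IEC2 to IEC4 (SE 0.200, limma adjusted p = 0.000213) and fell by 1.62 from IEC4 to IEC12 (SE 0.200, limma adjusted p = 0.00029). All 8 genes of the list were found. In AOC against IEC12, 1 of 5 tested was higher and 3 were lower, the others of these being the adaptor GRB14, listed at 0 in AOC, and PIK3R1, a PI3-kinase subunit. From IEC2 to IEC4, 1 of 4 rose (ANGPT1) and none fell. From IEC4 to IEC12, 1 rose (PIK3R1) and 1 fell (ANGPT1). The PIK3R1 rise was lost without IEC4 replicate B or IEC12 replicate B (limma adjusted p = 0.0684 and 0.0502) and with libraries scaled to equal totals (0.0910).

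The 3 tested genes of the Slit and Robo list were lower in AOC than in IEC2 and IEC12, and 2 of the 3 were lower than in IEC4, where ROBO1 was not called (limma adjusted p = 0.635). SLIT2, a secreted ligand of the roundabout receptors, was listed at 0 in all AOC libraries and measured 0.385, 1.72 and 1.32 in IEC2, 6.57, 6.23 and 5.14 in IEC4, and 47.5, 34.9 and 39.4 in IEC12. The stages did not overlap. SLIT2 rose by 1.75 from IEC2 to IEC4 (SE 0.252, limma adjusted p = 0.000632) and by 2.57 from IEC4 to IEC12 (SE 0.252, limma adjusted p = 9e-05). ROBO1 and ROBO2, the relatives of ROBO4 found in the nervous system and elsewhere, measured 10.4 ± 1.75 and 6.18 ± 1.94 in IEC12, and both were lower in AOC than there. UNC5B, a netrin receptor that binds ROBO4, was not tested, since it was at 0.103 to 0.202 in AOC and reached 1 only in IEC4 replicate C, at 2.22. All 8 were found and 3 tested: 3 were lower in AOC than in IEC12, 1 rose and 1 fell from IEC2 to IEC4, and 2 rose and none fell from IEC4 to IEC12.

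Of the genes around NOS3, 11 of 13 were found and 10 tested against AOC, and 8 were higher in AOC than in IEC12 with none lower. Of all genes tested, 22.4% were higher and 36.2% lower. The list's median difference in log2(FPKM + 1) was 1.68, against -0.21 for all genes. NOSTRIN and CAVIN1, which are among the 10, passed the filter through their AOC levels, which favoured a call as higher. CAV1, the caveolar protein that holds NOS3 inactive, measured 513, 490 and 499 in AOC and 82.7, 75.5 and 79.8 in IEC12. NOSTRIN, which regulates NOS3 trafficking, measured 17.2, 18.8 and 16.0 in AOC and no more than 0.952 in any IEC library. GUCY1B1, a subunit of the soluble guanylate cyclase that senses nitric oxide, was higher in AOC by 1.90 (SE 0.177, limma adjusted p = 2.5e-06). GUCY1B1 was above 1 in all IEC libraries and rose by 1.22 from IEC2 to IEC4 (SE 0.202, limma adjusted p = 0.00143). DDAH1, which degrades inhibitors of nitric oxide synthase, and GCH1, which makes its cofactor, fell from IEC2 to IEC4 by 2.15 and by 1.79. In all, 2 of 8 rose and 2 fell at that step, and 1 rose (CAV1) and none fell at the next. The CAV1 call was lost when libraries were scaled to equal totals. It was also lost without IEC4 replicate B, without IEC4 replicate C or without any 1 IEC12 library, with limma adjusted p values from 0.0584 to 0.113.

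**Figure D4:**
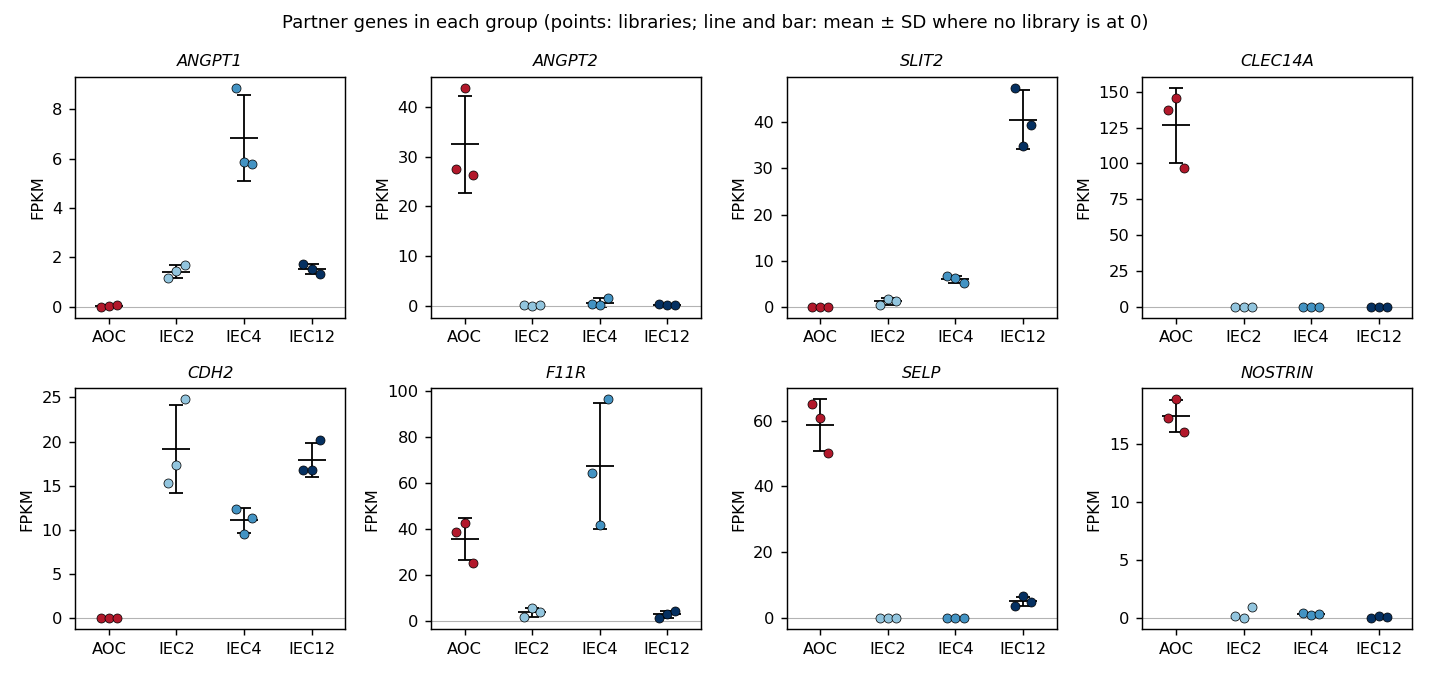
FPKM of 8 partner genes (vertical axes, a separate scale in each panel) in the 4 groups (horizontal axes); points are libraries, and the line and bar are the mean and SD, drawn only where no library is at 0. ANGPT2, CLEC14A, NOSTRIN and SELP are high in AOC, ANGPT1 and F11R are highest in IEC4, and SLIT2 is highest in IEC12.

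MMRN2 binds the endothelial lectins CLEC14A and CD93, and both shared its AOC pattern. CLEC14A measured 137, 146 and 97.0 in AOC and was listed at 0 in all 9 IEC libraries. CD93 measured 18.0, 19.4 and 8.34 in AOC and was at 0 in 8 of 9 IEC libraries, the other value being 0.00949. These were the 2 genes tested of the 7 found of 8 listed, and both were higher in AOC against each stage. Both entered through AOC alone, so that entry itself required a difference and the count adds nothing to the levels. In all 9 IEC libraries the 7 genes stayed under an FPKM of 1.

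Among genes related to the sialomucins, 4 of 6 were found and tested. SELP, P-selectin, which binds sialylated mucins, measured 65.1, 60.9 and 50.0 in AOC and 3.68, 6.58 and 4.79 in IEC12, and rose by 2.52 from IEC4 to IEC12 (SE 0.193, limma adjusted p = 2.5e-05). CD164, a widely expressed sialomucin, was at 272 ± 5.59 in AOC and 113 ± 7.27 in IEC12 (SD, n = 3). From IEC2 to IEC4, none of the 4 rose and 1 fell (CD164), and from IEC4 to IEC12, 1 rose (SELP) and 1 fell (PODXL2). The PODXL2 call was lost without IEC4 replicate A or B or without IEC12 replicate A or B, with limma adjusted p values from 0.0872 to 0.114. In AOC against IEC12, 2 were higher (SELP and CD164) and 1 lower (the adaptor CRKL), and CRKL was not called when libraries were scaled by the median of ratios (limma adjusted p = 0.0827).

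The PECAM1 tail recruits phosphatases and kinases, and 6 of 6 listed partners were found, with 4 tested. PTPN11, the phosphatase SHP-2, was at 22.1 ± 0.512 in AOC and 16.1 ± 0.583 in IEC12 (limma adjusted p = 0.0494). That call was lost without any 1 library of AOC or IEC12, and without IEC2 replicate B or C, with limma adjusted p values from 0.0576 to 0.11. PTPN6, the related SHP-1, was lower in AOC than in IEC12, and it fell from IEC4 to IEC12 by 1.20 in log2(FPKM + 1). FYN, a Src-family kinase, fell by 1.05 from IEC2 to IEC4. From IEC2 to IEC4, 1 rose (PTPN6) and 1 fell, and from IEC4 to IEC12, none rose and 1 fell. The PTPN6 rise was lost without IEC2 replicate A or B or IEC4 replicate A or C, with limma adjusted p values from 0.0553 to 0.0887, and also with 0.1 added in place of 1 (0.0823) and without a filter (0.0569). In AOC against IEC12, 1 was higher and 1 lower.

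Likeness of pattern was measured by Pearson's r on log2(FPKM + 1) over the 12 libraries, across 9158 other genes for each of the 10 (9159 for TIE1). These values describe mainly the gap between 3 AOC and 9 IEC libraries, which the libraries share. CDH5 and ROBO4 were most like each other, and CLEC14A came next for both. The nearest genes were GASK1B and TMEM54 for PECAM1, CDH13 and CLEC14A for ESAM, TM4SF18 and TMEM54 for EMCN, and LYPD5 and RCSD1 for CD34. For TEK they were MGST1 and RNF17, for TIE1 CCL5 and GMFG, and for MMRN2 INSL6 and SCG2. NOS3 was nearest to PECAM1 (r = 0.99), and the other gene named for it was C5AR2. An r above 0.99 was reached by 81 genes with CDH5 but by 1 with TEK, 1 with NOS3 and none with MMRN2.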

How the data were processed

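The libraries were made from amplified cDNA (SMART-Seq2, SMARTER kit) and sequenced on the HiSeq platform, per the labels and the study's methods. FPKM per Ensembl gene were deposited by the authors, 1 file per library. The submitters' processing notes name Bowtie2 2.2.3, TopHat2 2.0.12, Cufflinks 2.2.1 and the build susScr11; the annotation and strand setting are not given in the sources used here. Symbols from a table of gene names matched 13998 of 19681 identifiers, and 21 listed genes stayed unmatched. Positions are from RefSeq (Sscrofa11.1).

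Groups were compared with limma 3.58.1 in R 4.3.3 on log2(FPKM + 1) with a mean-variance trend, after keeping genes at an FPKM of 1 or more in at least 3 libraries. Stages were fitted in the 9 IEC libraries and AOC in all 12. A call was a Benjamini-Hochberg adjusted p under 0.05 over all genes tested. The script was tested on simulated data. Alternatives were a pseudocount of 0.1, no filter, 2 scalings, a fit of only the groups compared, a replicate block, no trend, stricter limits and each library left out. With a library left out, the filter asked for as many libraries as the smallest group held. The main fits did not pair the libraries by the letters A, B and C: no comparison had a correlation of deviations over 0.1 for every letter. With 3 libraries a group this rule cannot exclude a pairing.

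Named genes were the 10, fixed binding partners, up to 3 called genes per partner list with the largest changes, and the 2 genes most alike to each. The 10 genes and all lists were chosen with earlier results of these data known. Of the partner genes, 1 is not reported here and stands in no count of a list. TPI1, GAPDH, NECTIN3, RGS5, ACTA2, CLDN6 and CLDN7 were named after their values were seen. So were COL3A1, COL1A2, COL1A1, PDGFRA, DCN and the neighbouring genes. P-values measure the spread between these replicates only.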

Additional observations from a re-analysis of the deposited data

How the results depend on the processing

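With stricter limits for a call, 5 of the 10 genes were called in each AOC comparison in place of 9. The partner genes called under those limits numbered 1 in place of 16 for IEC4 against IEC2, 2 in place of 16 for IEC12 against IEC4 and 1 in place of 14 for IEC12 against IEC2. For AOC they numbered 9 in place of 29 against IEC2, 8 in place of 30 against IEC4 and 8 in place of 30 against IEC12. Without a filter, 1 of the 10 genes, PECAM1, was called in each comparison of stages in place of 0. Apart from the stricter limits, the 27 tested differences between AOC and a stage kept their direction and call in all 513 values under alternatives. The 9 genes behind them entered through AOC alone, so their direction was largely set by that entry. Leaving out each library in turn called 9 of the 10 genes in every AOC comparison and, under the filter that none of the 10 passed, 0 between stages. Without the filter PECAM1 was called from IEC2 to IEC4 and from IEC4 to IEC12 with any 1 library left out.

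With the replicate letter as a block, 9 of the 10 genes were called in each AOC comparison. The block left PECAM1 uncalled from IEC2 to IEC12 without a filter (difference -0.22 in log2(FPKM + 1), limma adjusted p = 0.0648), so that 0 of the 10 in place of 1 were called there, and it moved no count of partner genes called by over 1.5 times. The deviations of same-lettered libraries did not correlate for every letter. For IEC12 against IEC2, r was 0.263 for A, 0.0305 for B and 0.218 for C. With 3 libraries a group, this cannot exclude a pairing.

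Scaling to equal totals moved the median difference of all genes by -0.17 for IEC12 against IEC4, by -0.22 for IEC12 against IEC2, by -0.25 for AOC against IEC2 and by -0.20 for AOC against IEC4. Median-of-ratios scaling moved it by -0.11 for IEC4 against IEC2, by 0.23 for AOC against IEC4 and by 0.17 for AOC against IEC12. The share of calls that were higher went from 39.2% to 25.6% for IEC12 against IEC4, from 55.7% to 36.5% for IEC12 against IEC2 and from 41.9% to 31.1% for AOC against IEC2 with equal totals, and from 38.2% to 48.8% for AOC against IEC12 with median-of-ratios scaling. Counting error below an FPKM of 1 could not be assessed, since the files hold no counts.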
